A study of Mus musculus with 9 samples.

Results

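The integrins and laminins described here are the mouse genes with the symbol of an integrin alpha or beta chain or of a laminin alpha, beta or gamma chain. The rule uses the symbol and no measured value, but it was set with earlier results of these data known. The genes analysed are the 35 with an array probe set that named 1 gene, namely 25 integrins and 10 laminins, out of 22180 genes in all. For Itgav, which had a further probe set near background, the brighter one was used. RNA of bulk frozen tissue was hybridized to 9 Affymetrix MoGene-2_0-st arrays, 3 for each of 3 groups, and all values are log2 values normalized by the authors with the robust multichip average. The P3 high-DOX group was P3 GBM of mice labelled hPDGF-A;hPDGFRα;p53lox on doxycycline (DOX) at 600 mg/kg, the P3 low-DOX group was P3 GBM of the same genotype at 25 mg/kg, and the OPC lesion group was labelled hPDGFRα;p53 at 600 mg/kg. The study's text gives another amount for the high diet than the labels used here. DOX sets the level of hPDGF-A, which a lentivirus that also carries Cre brought into the striatum of adult mice, and Cre switches on the human receptor behind the CAG promoter and removes p53. For the OPC lesions the study's text names the lentivirus and floxed p53 and no receptor transgene, so the genotype of this group is not settled, and its text describes the cells of these lesions as wild type in p53 expression and the P3 cultures as p53 null. All 3 groups share the lentivirus injection and Cre. The labels number the arrays without saying that each came from a separate mouse, while the design text calls them biological replicates, so p values measure the spread between these samples only.

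Integrins are receptors made of an alpha and a beta chain that hold cells to the matrix or to other cells and signal inward through talin, kindlin and focal adhesion proteins. Laminins are trimers of an alpha, a beta and a gamma chain and form the backbone of basement membranes, which in brain lie around vessels and at the meninges. In brain, glial progenitors and tumor cells carry laminin-binding and arginine-glycine-aspartate (RGD)-binding integrins, whereas the leukocyte integrins are carried by microglia and blood-borne immune cells. In bulk tissue, fewer cells of a type and less RNA per cell cannot be told apart.

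The deposited values had array medians between 4.55 and 4.83, and arrays correlated between 0.915 and 0.982 with each other. Background was taken as the 95th percentile of 1394 olfactory and vomeronasal receptor genes in each array, which lay between 4.23 and 4.49, and 30 to 33 of the 35 genes exceeded it per array. All 10 markers of oligodendrocyte precursors were above background in every group. Several arrays stood apart in markers of other cells. The mean of 10 fibroblast and meninges markers was 8.09 in P3 low-DOX replicate 3, against 5.14 to 6.08 in the other 8 arrays. The mean of 6 choroid plexus markers was 7.88 in P3 high-DOX replicate 2, against 4.14 to 4.38 elsewhere. The mean of 9 markers of myelinating oligodendrocytes was 10.85 in P3 low-DOX replicate 1, against 6.62 to 8.86 elsewhere. The mean of 11 neuron markers spanned 6.78 to 10.55 in P3 high-DOX tumors, 5.44 to 6.65 in P3 low-DOX tumors and 6.34 to 10.39 in OPC lesions.

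**Figure D1:**
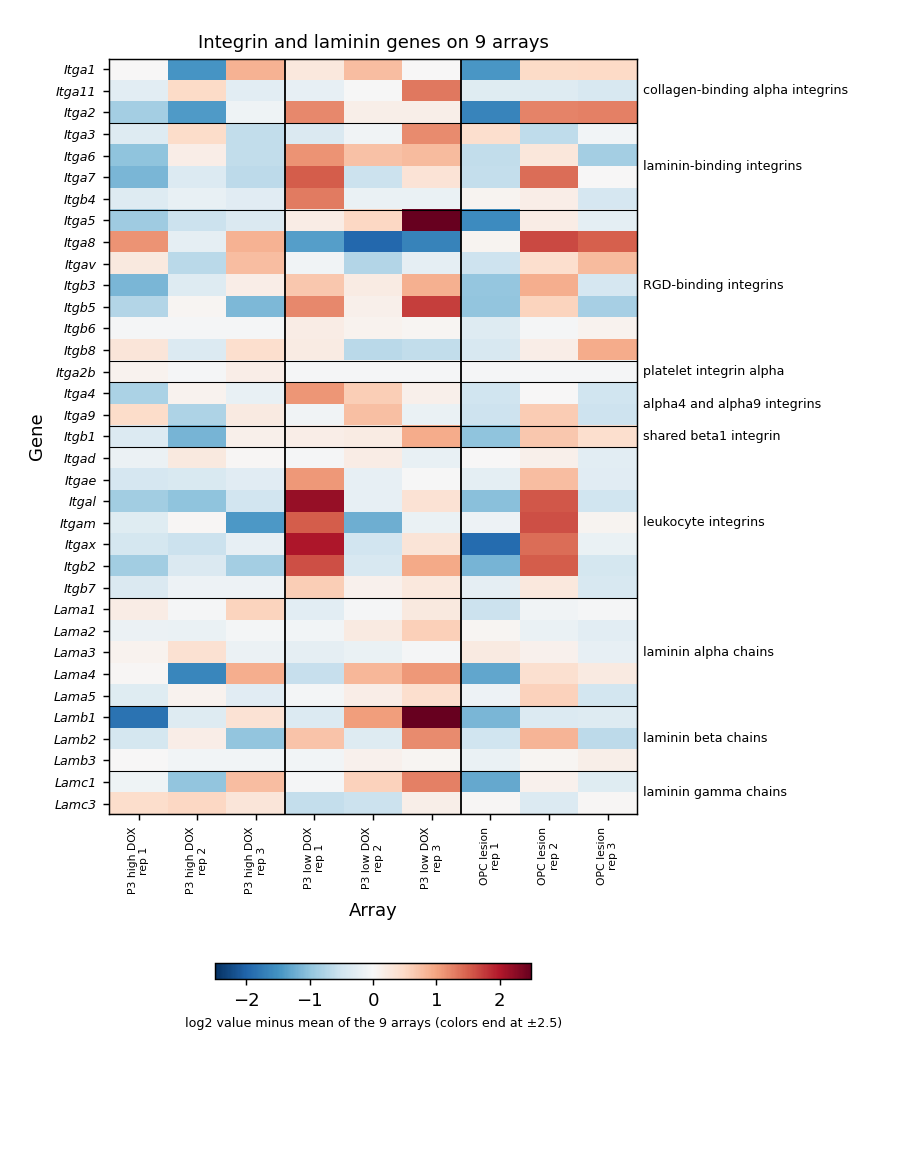
Log2 value of each of the 35 genes (rows, grouped by role) in each of the 9 arrays (columns, in the order P3 high DOX, P3 low DOX, OPC lesion) minus the gene's mean over the 9 arrays. Itga8 is blue in the 3 P3 low-DOX arrays, which had 5.77, 5.18 and 5.49, and the strongest reds of Itga5 and Lamb1 are in P3 low-DOX replicate 3, at 9.65 and 10.40.

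Between the DOX doses within P3 GBM, most integrin and laminin genes averaged lower values at high DOX, with Itga8 on the other side by the widest margin, but no gene passed the test. The log2 difference, P3 high-DOX minus P3 low-DOX, was below 0 for 27 of the 35 genes with a median of -0.59, whereas 50% of all 22180 genes were below 0 with a median of 0.00. It was below 0 for 20 of 25 integrins (median -0.61) and for 7 of 10 laminins (median -0.36). By limma with Benjamini-Hochberg adjustment over all genes, 0 of the 35 genes were called at an adjusted p under 0.05, as were 0% of all genes in each direction. At an unadjusted p under 0.05 there were 2 higher and 5 lower members, beside 5.25% of all genes higher and 4.89% lower. The test named in the study's methods gave 0 calls after adjustment and 6 members at an unadjusted p under 0.05. All P3 high-DOX values were above all P3 low-DOX values for 2 members and below them for 12, beside 8.23% and 7.76% of all genes. Of these 12, Itgb6 and Itgae were not above background at high DOX. Several of the 12 were apart by narrow margins. The highest P3 high-DOX and lowest P3 low-DOX values were 5.41 and 5.44 for Itgb4, 7.39 and 7.43 for Itga4, and 10.02 and 10.06 for Itgb1. They were 6.41 and 6.46 for Itgb3, 3.48 and 3.55 for Itgb6, 8.68 and 8.76 for Itgb5, and 4.01 and 4.09 for Itgae. Within groups the median SD was 0.610 over the 35 genes and 0.256 over all genes. These sets were not matched for level. Per array, 64.8% to 67.6% of all genes were above background, against 30 to 33 of the 35.

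The count of 7 members at an unadjusted p under 0.05 moved with single arrays. Leaving out P3 low-DOX replicate 3 gave 4, leaving out P3 high-DOX replicate 1 gave 3, and leaving out P3 low-DOX replicate 2 gave 11. Without P3 high-DOX replicate 2 and P3 low-DOX replicate 3 together, the median over all 35 genes was -0.29, that of the integrins -0.79 and that of the laminins 0.01.

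**Figure D2:**
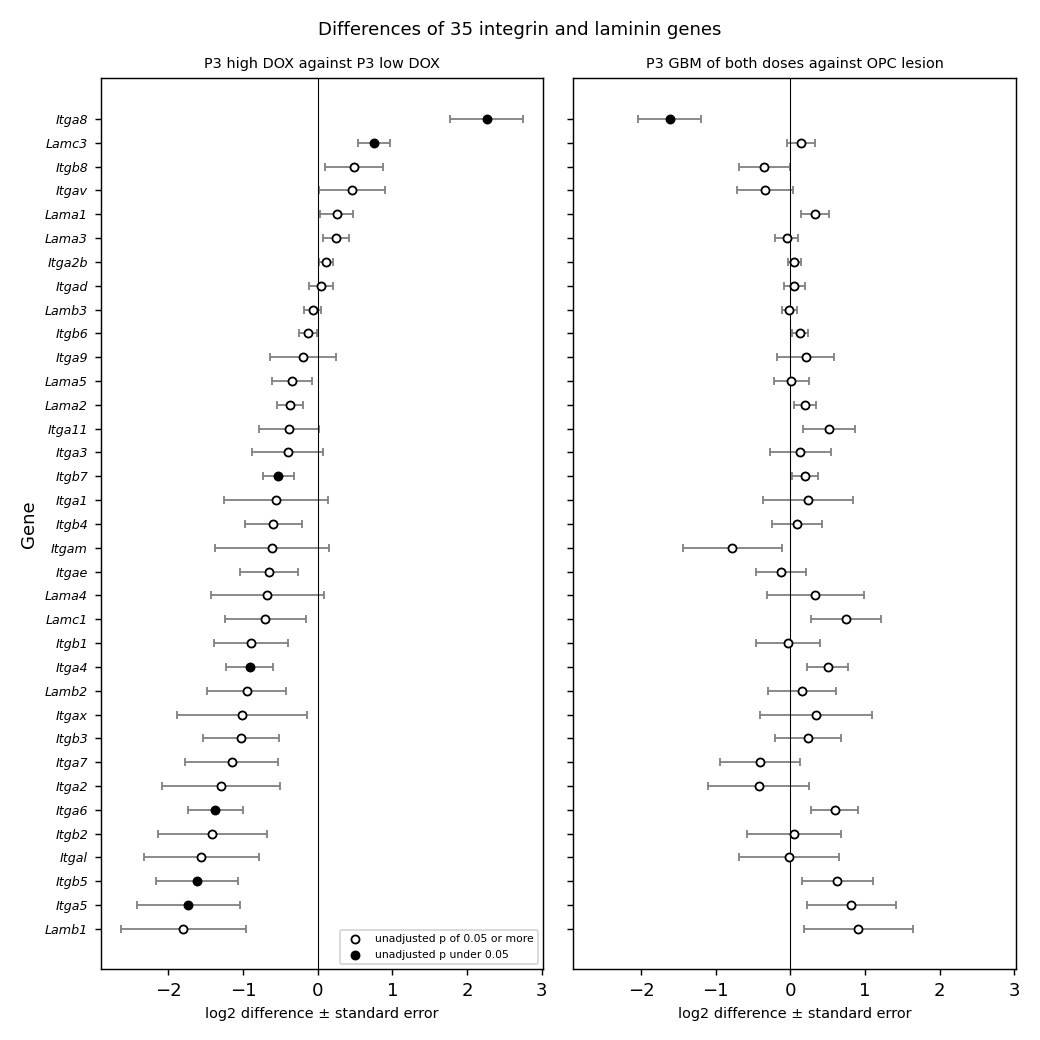
Log2 difference of each of the 35 genes (rows) with its standard error (bars), for P3 high DOX minus P3 low DOX (left) and for the mean of both P3 doses minus OPC lesion (right). Filled points mark an unadjusted p under 0.05, and no point passed after adjustment. On the left, 27 points lie below 0 and Itga8 lies at 2.27, while on the right Itga8 lies at -1.62.

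Among the RGD-binding integrins, whose ligands include fibronectin, vitronectin and latent TGF-beta, Itga8 stood highest and Itga5 and Itgb5 lowest in the high-DOX over low-DOX comparison. The promoters of these 3 genes are shown because their differences were the most unequal of this role group. Each run holds the 250 bases before and 50 bases after the start of the gene from RefSeq (GRCm38.p6), written 5′ to 3′ along the gene. RefSeq promoters were at hand for 22 of the 35 genes. Capitals mark matches on either strand to the GC box (GGGCGG), the core of a PU.1 site (GAGGAA), the AP-1 site (TGACTCA) or the TATA box (TATAAA), and the matches shown did not overlap.
Itga8: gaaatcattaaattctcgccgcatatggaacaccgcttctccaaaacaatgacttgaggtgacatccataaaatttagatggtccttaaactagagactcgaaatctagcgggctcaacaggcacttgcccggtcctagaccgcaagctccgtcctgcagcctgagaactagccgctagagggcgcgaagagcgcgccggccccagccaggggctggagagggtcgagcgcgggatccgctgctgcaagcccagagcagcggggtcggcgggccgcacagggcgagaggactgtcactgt
Itga5: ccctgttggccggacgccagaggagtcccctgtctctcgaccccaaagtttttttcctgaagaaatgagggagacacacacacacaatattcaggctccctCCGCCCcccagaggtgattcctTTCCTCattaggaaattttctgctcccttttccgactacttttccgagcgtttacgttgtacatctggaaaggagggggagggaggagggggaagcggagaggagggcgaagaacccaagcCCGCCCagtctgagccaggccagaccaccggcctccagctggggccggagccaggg
Itgb5: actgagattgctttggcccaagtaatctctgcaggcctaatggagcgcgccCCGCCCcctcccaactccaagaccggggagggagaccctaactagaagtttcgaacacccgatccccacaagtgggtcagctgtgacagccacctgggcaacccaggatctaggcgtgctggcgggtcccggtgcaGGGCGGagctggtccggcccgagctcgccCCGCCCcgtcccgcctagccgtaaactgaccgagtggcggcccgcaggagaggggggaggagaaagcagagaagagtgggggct

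The window of Itga8 lies at chr2:12301895-12302194 on the minus strand, that of Itga5 at chr15:103366742-103367041 on the minus strand and that of Itgb5 at chr16:33829415-33829714 on the plus strand. The Itga8 window held none of the 4 motifs, the Itga5 window held 2 GC boxes and 1 PU.1 core, and the Itgb5 window held 3 GC boxes. A GC box was in 35.7% of all 32851 promoters, a PU.1 core in 28.3%, an AP-1 site in 5.2% and a TATA box in 13.6%, so these matches are a description of the letters only. G and C made up 59% of the Itga8 window, 58.7% of the Itga5 window and 65.7% of the Itgb5 window, against a median of 52.7% over all promoters.

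Itga8, which pairs with Itgb1 and binds nephronectin, fibronectin and other RGD ligands, had 8.28, 6.94 and 8.02 in P3 high-DOX tumors, 5.77, 5.18 and 5.49 in P3 low-DOX tumors and 7.23, 8.80 and 8.65 in OPC lesions. Every P3 low-DOX array was thus below every other array, and the P3 high-DOX and OPC lesion arrays overlapped. The difference of high-DOX over low-DOX tumors was 2.27 ± 0.486 (SE, 4.81-fold, 95% interval 1.14 to 3.39, limma adjusted p = 0.376), and it stayed between 2.00 and 2.67 when single arrays were left out. All 11 neuron markers also averaged higher at high DOX, with list means of 8.17, 10.55 and 6.78 in P3 high-DOX tumors, 6.65, 5.44 and 6.56 in P3 low-DOX tumors and 10.39, 6.34 and 9.03 in OPC lesions. Their part in the Itga8 result was not tested. Nephronectin (Npnt), named here after its values were seen, had 6.04, 6.69 and 5.49 in P3 high-DOX tumors, 8.15, 6.88 and 6.52 in P3 low-DOX tumors and 7.03, 6.81 and 6.18 in OPC lesions. The Npnt difference of high-DOX over low-DOX tumors was -1.11 ± 0.475 (SE, limma adjusted p = 0.485), on the other side of 0 from that of Itga8. The doses overlapped for Npnt.

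Itga5, the fibronectin receptor chain, had 6.07, 6.42 and 6.60 in P3 high-DOX tumors, 7.15, 7.49 and 9.65 in P3 low-DOX tumors and 5.39, 7.15 and 6.71 in OPC lesions. The P3 doses did not overlap, and P3 low-DOX replicate 3 lay far above the rest. The difference of high-DOX over low-DOX tumors was -1.73 ± 0.689 (SE, limma adjusted p = 0.462) and -0.96 without that array. Itgb5, which pairs with Itgav to bind vitronectin, had 7.90, 8.68 and 7.51 in P3 high-DOX tumors, 9.84, 8.76 and 10.36 in P3 low-DOX tumors and 7.64, 9.18 and 7.81 in OPC lesions. The doses did not overlap, though P3 high-DOX replicate 2 and P3 low-DOX replicate 2 were close, and the difference was -1.62 ± 0.549 (SE, limma adjusted p = 0.429). Itgb3, the beta chain shared by the vitronectin and platelet receptors, averaged 5.81 ± 0.658 in P3 high-DOX tumors and 6.84 ± 0.346 in P3 low-DOX tumors (SD, n = 3 each). The doses did not overlap for Itgb3 by a narrow margin, at 6.41 in P3 high-DOX replicate 3 against 6.46 in P3 low-DOX replicate 2. Itgav and Itgb8, which together activate latent TGF-beta, were on the other side of 0 at 0.46 ± 0.440 and 0.49 ± 0.390 (SE) for high-DOX over low-DOX tumors, with 95% intervals of -0.55 to 1.48 and -0.41 to 1.39. Itgb6, an epithelial chain, was not above background on any array.

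**Figure D3:**
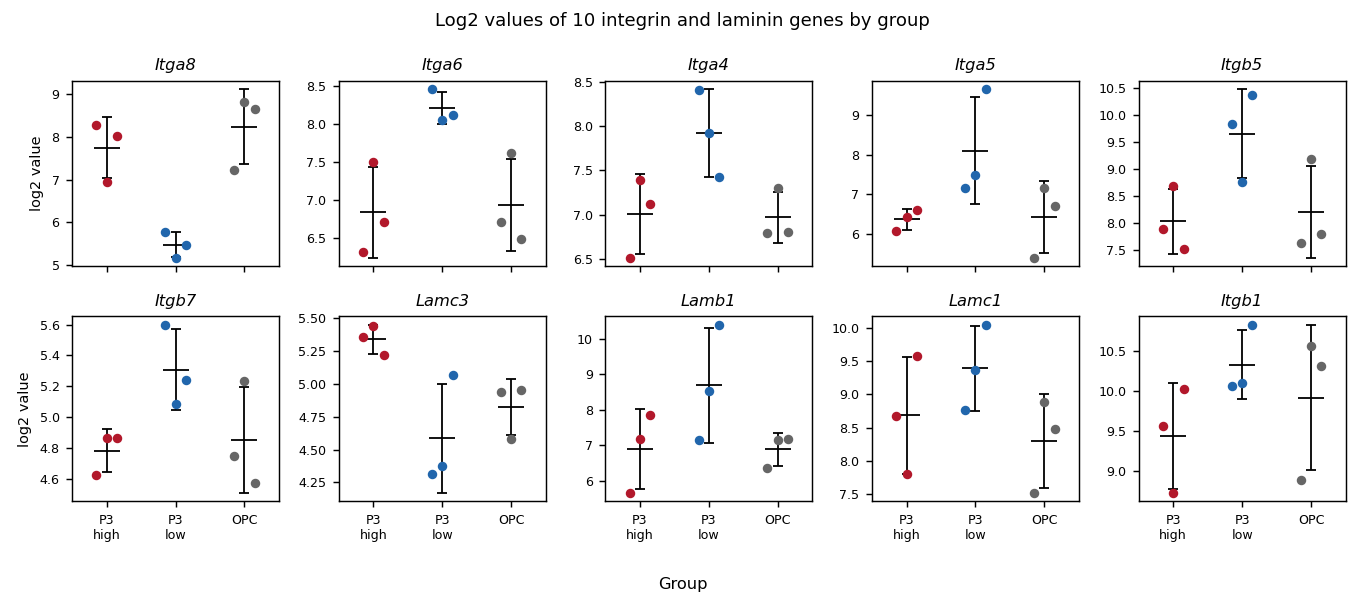
Log2 values of 10 integrin and laminin genes (1 panel each, with its own axis) in the 3 arrays each of P3 high DOX, P3 low DOX and OPC lesion. Points are arrays, the wide bar is the mean and the error bar is 1 SD. For Itga8 the P3 low-DOX points (5.18 to 5.77) are below all others, and for Itga6 they (8.06 to 8.46) are above all others.

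All 4 laminin-binding integrins averaged lower values at high DOX than at low DOX within P3 GBM, with a median difference of -0.87. Itga6, a laminin receptor chain that pairs with Itgb1 or Itgb4 and is known from glioma stem cells, had 6.32, 7.50 and 6.71 in P3 high-DOX tumors, 8.46, 8.06 and 8.12 in P3 low-DOX tumors and 6.71, 7.62 and 6.48 in OPC lesions. Every P3 low-DOX array was above all other arrays, and the P3 high-DOX and OPC lesion arrays overlapped. The difference of high-DOX over low-DOX tumors was -1.37 ± 0.369 (SE, 2.58-fold lower, 95% interval -2.22 to -0.51, limma adjusted p = 0.384). Itga7, a chain best known from muscle, had 5.70, 6.50 and 6.19 in P3 high-DOX tumors, 8.36, 6.31 and 7.18 in P3 low-DOX tumors and 6.25, 8.24 and 6.86 in OPC lesions, so that the groups overlapped. Itgb4, the partner of Itga6 in hemidesmosomes, and Itga3, a receptor chain for laminins of epithelia and vessels, had differences of -0.59 ± 0.383 and -0.40 ± 0.472 (SE). For Itgb4 the P3 low-DOX mean rested on replicate 1 at 6.91, the other arrays of the group being at 5.44. For Itga3 it rested on replicate 3 at 6.92. The other P3 low-DOX arrays had 5.38 and 5.66 for Itga3, on either side of the P3 high-DOX mean of 5.59. Of the markers of myelinating oligodendrocytes, cells that carry Itga6, 9 of 9 also averaged lower at high DOX, with list means of 6.62 to 7.77 in P3 high-DOX tumors, 7.87 to 10.85 in P3 low-DOX tumors and 7.17 to 8.86 in OPC lesions, and their part in these differences was not tested.

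Itgb1, the beta chain shared by most matrix-binding integrins, had 9.56, 8.73 and 10.02 in P3 high-DOX tumors, 10.06, 10.10 and 10.82 in P3 low-DOX tumors and 8.89, 10.56 and 10.31 in OPC lesions. The doses did not overlap by a narrow margin, and the difference of high-DOX over low-DOX tumors was -0.89 ± 0.500 (SE, limma adjusted p = 0.576). It was -0.29 without P3 high-DOX replicate 2 and P3 low-DOX replicate 3. Of the 3 measured collagen-binding alpha chains, Itga1, of vessels and stroma, and Itga11, of fibroblasts, overlapped between the doses, with differences of -0.55 ± 0.697 and -0.39 ± 0.398 (SE). Itga2, best known from platelets and epithelia, had 5.37, 4.79 and 6.11 in P3 high-DOX tumors, 7.42, 6.35 and 6.36 in P3 low-DOX tumors and 4.56, 7.45 and 7.47 in OPC lesions. The doses did not overlap for Itga2, and the OPC lesions spanned both, with a difference of -1.29 ± 0.787 (SE) for high-DOX over low-DOX tumors. Itga4, which binds VCAM1 and fibronectin, averaged 7.01 ± 0.450 in P3 high-DOX tumors and 7.92 ± 0.493 in P3 low-DOX tumors (SD, n = 3 each). The difference was -0.91 ± 0.311 (SE, limma adjusted p = 0.429). The doses did not overlap for Itga4 by a narrow margin, at 7.39 in P3 high-DOX replicate 2 against 7.43 in P3 low-DOX replicate 3. Its relative Itga9, a receptor chain for tenascin-C, overlapped at -0.19 ± 0.443 (SE).

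Itgal, Itgam, Itgax and Itgb2 had their highest values in P3 low-DOX replicate 1 and OPC lesion replicate 2. For the 7 leukocyte integrins, the difference of high-DOX over low-DOX tumors was below 0 for 6 of 7, with a median of -0.65. Leaving out P3 low-DOX replicate 1 gave -0.32, and leaving out P3 low-DOX replicate 2 gave -1.24. Itgb2, the beta chain that Itgal, Itgam, Itgax and Itgad share, had 6.64, 7.14 and 6.66 in P3 high-DOX tumors, 9.11, 7.10 and 8.45 in P3 low-DOX tumors and 6.34, 9.02 and 7.06 in OPC lesions. The groups overlapped, and the difference was -1.41 ± 0.724 (SE, limma adjusted p = 0.547). Itgal, the alpha chain of LFA-1 on lymphocytes and myeloid cells, had 4.70, 4.56 and 5.08 in P3 high-DOX tumors, 7.74, 5.36 and 5.92 in P3 low-DOX tumors and 4.53, 7.12 and 5.07 in OPC lesions. The doses did not overlap, and the difference of -1.56 ± 0.775 (SE, limma adjusted p = 0.536) was -0.86 without P3 low-DOX replicate 1. Itgam, the alpha chain of the complement receptor of microglia and macrophages, had 7.01, 7.35 and 5.88 in P3 high-DOX tumors, 8.82, 6.10 and 7.15 in P3 low-DOX tumors and 7.19, 8.93 and 7.38 in OPC lesions, with overlap between all groups. Itgax, the alpha chain of dendritic cells and activated microglia, had 5.71, 5.59 and 5.93 in P3 high-DOX tumors, 8.16, 5.66 and 6.46 in P3 low-DOX tumors and 4.22, 7.54 and 5.97 in OPC lesions, also with overlap. Itgb7, the partner of Itga4 and Itgae on lymphocytes, averaged 4.78 ± 0.138 in P3 high-DOX tumors and 5.31 ± 0.263 in P3 low-DOX tumors (SD, n = 3 each) with no overlap. Itgae, a chain of T cells in tissues, was above background on 0 of 3 P3 high-DOX, 1 of 3 P3 low-DOX and 1 of 3 OPC lesion arrays. Its average was lower at high than at low DOX, by 1.17-fold when the P3 high-DOX arrays were raised to background. The 95% interval of the measured log2 difference, -1.55 to 0.25, included 0. That fold rests on P3 low-DOX replicate 1 at 5.38, since the other P3 low-DOX arrays were below background. Itgad, of some macrophages, was not above background on any array. Itga2b, the platelet alpha chain, had 4.89, 4.77 and 4.96 in P3 high-DOX tumors and the identical value of 4.77 on the other 6 arrays, so no fold is given for it.

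P3 low-DOX replicate 1 and OPC lesion replicate 2 also held the highest means of 15 measured microglia markers, at 8.65 and 7.76. Over the groups the microglia mean ranged from 6.36 to 7.29 in P3 high-DOX tumors, from 7.60 to 8.65 in P3 low-DOX tumors and from 6.90 to 7.76 in OPC lesions, and 12 of 15 markers were lower on average at high DOX. The mean of 9 T and NK cell markers ranged from 4.11 to 4.18 in P3 high-DOX tumors, where 6 of the 9 were not above background on any array, from 4.35 to 6.13 in P3 low-DOX tumors and from 4.05 to 4.84 in OPC lesions. The mean of 10 macrophage markers of monocyte or border origin ranged from 4.46 to 4.55 in P3 high-DOX tumors, from 5.44 to 6.48 in P3 low-DOX tumors and from 4.37 to 4.90 in OPC lesions. The part of these cells in the leukocyte integrin result was not tested. Of the markers of neutrophils, 7 of 8 were not above background on any P3 high-DOX array, nor were 6 of 8 on any P3 low-DOX or OPC lesion array.

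**Figure D4:**
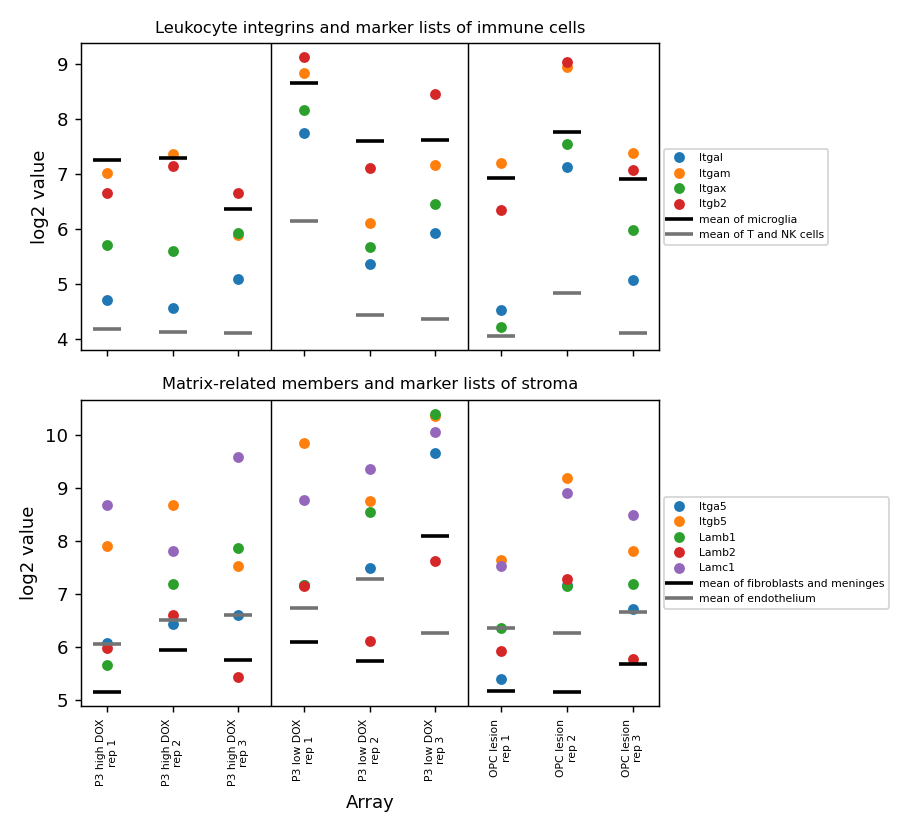
Log2 values (vertical axis) per array (horizontal axis) of 4 leukocyte integrins with the means of the microglia and T and NK cell marker lists (top), and of 5 matrix-related members with the means of the fibroblast and endothelial lists (bottom). Dots are genes and bars are list means. The top dots are high in P3 low DOX replicate 1 and OPC lesion replicate 2, and the fibroblast mean is 8.09 in P3 low DOX replicate 3, where Itga5, Itgb5, Lamb1, Lamb2 and Lamc1 are at their highest.

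Among the laminins, Lamb1, Lamb2, Lamc1 and Lama4 averaged lower values at high DOX and Lamc3 a higher one, and the doses overlapped for every chain but Lamc3. Lamb1, the beta chain of most early and endothelial laminins, had 5.66, 7.18 and 7.86 in P3 high-DOX tumors, 7.16, 8.53 and 10.40 in P3 low-DOX tumors and 6.35, 7.15 and 7.18 in OPC lesions. The difference of high-DOX over low-DOX tumors was -1.80 ± 0.841 (SE, limma adjusted p = 0.520), and -0.95 without P3 low-DOX replicate 3. Lamc1, the gamma chain of most laminins, had 8.68, 7.81 and 9.57 in P3 high-DOX tumors, 8.77, 9.36 and 10.04 in P3 low-DOX tumors and 7.52, 8.89 and 8.48 in OPC lesions, a difference of -0.70 ± 0.541 (SE) between the doses with overlap. Lamb2, the beta chain of mature vessels and synapses, and Lama4, the endothelial alpha chain, had differences of -0.95 ± 0.531 and -0.67 ± 0.756 (SE). Lama2, the alpha chain of muscle and of brain pericytes and glia, and Lama5, of mature endothelium and epithelia, had differences of -0.37 ± 0.174 and -0.34 ± 0.269 (SE). Lama1, an alpha chain of early embryos, and Lama3, an epithelial alpha chain, were on the other side of 0 at 0.25 ± 0.216 and 0.24 ± 0.171 (SE), and Lama3 was above background on 1 of 3 P3 high-DOX arrays, 0 of 3 P3 low-DOX arrays and 2 of 3 OPC lesion arrays. Lamb3, an epithelial beta chain, had a difference of -0.07 with a 95% interval of -0.33 to 0.20. Lamc3 averaged 5.34 ± 0.111 in P3 high-DOX tumors and 4.59 ± 0.416 in P3 low-DOX tumors (SD, n = 3 each), with no overlap. Only 1 of 3 P3 low-DOX arrays was above background for Lamc3, so its measured difference of 0.75 ± 0.215 (SE, limma adjusted p = 0.399) is against a group largely at background.

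P3 low-DOX replicate 3, with the high fibroblast mean, held the highest value of 10 of the 35 genes, among them Lamb1, Lamb2, Lamc1, Lama2, Lama4, Itga5, Itgb5 and Itgb1. The fibroblast mean ranged from 5.14 to 5.94 in P3 high-DOX tumors, from 5.73 to 8.09 in P3 low-DOX tumors and from 5.14 to 5.67 in OPC lesions, and 9 of its 10 markers were lower on average at high DOX. The mean of 13 endothelial markers ranged from 6.04 to 6.60 in P3 high-DOX tumors, from 6.26 to 7.28 in P3 low-DOX tumors and from 6.26 to 6.65 in OPC lesions. That of 10 mural cell markers ranged from 6.87 to 7.56 in P3 high-DOX tumors, from 7.26 to 7.94 in P3 low-DOX tumors and from 6.74 to 7.44 in OPC lesions. The part of these cells in the differences of the matrix chains was not tested. P3 low-DOX replicate 1 held the highest value of a further 10 genes. OPC lesion replicate 1 held the lowest value of 10, counting Itga2b, whose lowest value was shared by 7 arrays.

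Against the OPC lesions, no integrin or laminin passed the test for P3 GBM of both doses together. The 3 comparisons with OPC lesions share the same 3 lesion arrays, so their values are given side by side only. The difference of P3 GBM of both doses over OPC lesions was above 0 for 24 of the 35 genes with a median of 0.13, beside 48.8% of all genes and a median of -0.01. Without OPC lesion replicate 1, 18 were above 0 with a median of 0.0086, and without OPC lesion replicate 2, 29 were with a median of 0.30. When each array was centred on its median, 19 were above 0 and the median of all genes lay at -0.13. By limma 0 of the 35 genes were called, as were 0% of all genes in each direction, and at an unadjusted p under 0.05 there were 0 higher members and 1 lower, beside 1.71% and 2.14% of all genes. That member was Itga8 at -1.62 ± 0.421 (SE, limma adjusted p = 0.974). By dose, Itga8 was at -2.75 ± 0.486 for P3 low-DOX and at -0.48 ± 0.486 for P3 high-DOX tumors over OPC lesions (SE). For low and high DOX in turn, Lamb1 was at 1.81 and 0.01, Itga5 at 1.68 and -0.05, Itgam at -0.48 and -1.09, and Lamc1 at 1.09 and 0.39. With both doses together, the next after Itga8 were Lamb1 at 0.91 ± 0.728, Itga5 at 0.81 ± 0.596, Itgam at -0.78 ± 0.661 and Lamc1 at 0.74 ± 0.469 (SE), all with overlap. Lamb1 was at 0.48 without P3 low-DOX replicate 3, Itga5 and Lamc1 at 0.30 and 0.35 without OPC lesion replicate 1, and Itgam at -0.23 without OPC lesion replicate 2. Itga11, a collagen receptor chain of fibroblasts, was the 1 member with no overlap and was higher in P3 GBM, beside 1.05% of all genes higher and 0.784% lower. It averaged 4.87 ± 0.435 in P3 high-DOX tumors, 5.26 ± 0.838 in P3 low-DOX tumors and 4.55 ± 0.0435 in OPC lesions (SD, n = 3 each). Its difference was 0.52 ± 0.345 (SE, limma adjusted p = 0.974). The margin was narrow, at 4.62 in P3 high-DOX replicate 3 against 4.58 in OPC lesion replicate 1. The highest values were 6.22 in P3 low-DOX replicate 3 and 5.38 in P3 high-DOX replicate 2.

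P3 low-DOX tumors were higher on average than OPC lesions for 28 of the 35 genes, with Itga2b equal and a median difference of 0.38, beside 49.3% of all genes and a median of 0.00. The median was 0.11 without OPC lesion replicate 1 and 0.68 without OPC lesion replicate 2. By limma 0 genes were called, as were 0% of all genes in each direction, and 4 members were higher and 1 was lower at an unadjusted p under 0.05, beside 4.4% and 5.41% of all genes. Itga8 was at -2.75 ± 0.486 (SE, 6.72-fold lower, 95% interval -3.87 to -1.62, limma adjusted p = 0.321), with no overlap. Itga6 was at 1.28 ± 0.369, Itga4 at 0.95 ± 0.311, Itgb5 at 1.44 ± 0.549, Itga5 at 1.68 ± 0.689 and Lamb1 at 1.81 ± 0.841 (SE), with limma adjusted p between 0.436 and 0.525. Of these Itga6 and Itga4 did not overlap with the OPC lesions. With Itga11, 3 members lay above all lesion arrays and 1, Itga8, lay below them, beside 6.34% and 7.92% of all genes. For Itga11 the margin was narrow, at 4.68 in P3 low-DOX replicate 1 against 4.58 in OPC lesion replicate 1. Without P3 low-DOX replicate 3, Itga5 was at 0.90 and Lamb1 at 0.96. The count of 5 was 9 without OPC lesion replicate 2, 2 without OPC lesion replicate 3, and 2 when each array was centred on its median, which placed all genes at -0.18.

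P3 high-DOX tumors, on the same diet as the OPC lesions, were lower on average for 23 of the 35 genes, with a median difference of -0.07, beside 51.8% of all genes and a median of -0.01. Without OPC lesion replicate 2, 13 of the 35 were lower and the median was 0.12, and without OPC lesion replicate 1, 27 were lower and the median was -0.26. By limma 0 genes were called, as were 0% of all genes in each direction, and at an unadjusted p under 0.05 there was 1 higher member and 0 lower, beside 0.897% and 0.726% of all genes. That member was Lamc3 at 0.51 ± 0.215 (SE, limma adjusted p = 1). With Itga11 it was also 1 of 2 members that lay above all OPC lesion arrays, and Itgae lay below them, beside 3.34% and 3.02% of all genes. The Itgae margin was that of 4.011 in P3 high-DOX replicate 3 against 4.018 in OPC lesion replicate 3. For Itgae 0 of 3 P3 high-DOX arrays and 1 of 3 OPC lesion arrays were above background. The Itga11 margin was also narrow, at 4.62 in P3 high-DOX replicate 3 against 4.58 in OPC lesion replicate 1. The largest differences in size were those of Itgam at -1.09 ± 0.763, Itga2 at -1.07 ± 0.787, Itga7 at -0.99 ± 0.625, Itgal at -0.79 ± 0.775 and Itgb2 at -0.66 ± 0.724 (SE), with overlap in all 5. Without OPC lesion replicate 2, the array with high microglia markers, Itgam was at -0.54, Itga2 at -0.60, Itga7 at -0.42, Itgal at -0.02 and Itgb2 at 0.11. Without OPC lesion replicate 1, Itga2 was at -2.04 and Itgal at -1.32.

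Among the partners of integrins and laminins, most basement membrane components, ligands and adaptors averaged lower values in P3 high-DOX tumors, while other laminin receptors were split. Of 12 other basement membrane genes, 10 were lower on average at high DOX, with a median difference of -0.99. Nid1, which links laminin to collagen IV, had a difference of -1.93 ± 0.678 (SE, limma adjusted p = 0.432), and the doses did not overlap by a narrow margin. Hspg2, or perlecan, a basement membrane proteoglycan, was at -1.53 ± 0.697 (SE). Of 28 measured integrin ligands outside the laminins, 23 were lower, with a median of -0.55. Among them Tgfbi, an RGD-bearing matrix protein, was at -3.10 ± 1.27 and Thbs2, an inhibitor of vessel growth, at -2.06 ± 1.53 (SE), both with overlap.

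Of 26 measured adaptors and activators, 18 were lower on average at high DOX, with a median of -0.40. Parvb, which links integrins to actin, had 6.49, 7.69 and 7.69 in P3 high-DOX tumors and 9.41, 9.90 and 9.08 in P3 low-DOX tumors, a difference of -2.18 ± 0.800 (SE, limma adjusted p = 0.439) with no overlap. Fermt3, the kindlin of blood cells, was at -1.79 ± 0.613 (SE, limma adjusted p = 0.431), also with no overlap. Receptors of laminin outside the integrins were split, with 6 of 11 lower and a median of -0.02. Among them Bcam, a receptor for laminins with the Lama5 chain, was at 0.85 ± 0.214 (SE, limma adjusted p = 0.376) with no overlap, and Sdc1, a syndecan, at -0.97 ± 0.428 (SE). None of these partner genes was called in any of the comparisons.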

How the data were processed

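Each of 9 frozen mouse tissue samples was hybridized to a gene array of type MoGene-2_0-st. The authors processed the signals by the robust multichip average (background correction, quantile normalization and probe summary) with R and Bioconductor and deposited log2 values, with versions not given in the sources used here. Their methods name a later SVA step and do not say whether these values include it. The number of arrays limits the precision. Values of 23521 probe sets naming 1 gene were used unscaled and unfiltered, with the brightest for genes with several, which gave 22180 genes. Groups came from the sample titles. The 3 group means were fitted together by limma (version 3.58.1, R 4.3.3), with 6 residual degrees of freedom and Benjamini-Hochberg adjustment over all genes at 0.05. The code of the fit was run on simulated independent normal values with planted differences, which checks the code only. Members follow a rule on gene symbols, and this rule, the gene lists and the tests were chosen with earlier results of these data known. Values in every array are given for the 5 members with the largest difference in each comparison and for Itgb1, Itgb2, Lamb1 and Lamc1. From the partner lists the 2 largest are named, and Npnt was added after its values were seen. Alternatives were other scaling, a filter that left out the 25% of genes with the lowest mean, averaging of probe sets within a gene, a variance trend, only the groups compared, a replicate block, the methods' test and leaving out arrays. Counts at an unadjusted p were added after the data were seen. Promoters are from RefSeq (GRCm38.p6). Figures used matplotlib 3.10.9.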

Additional observations from a re-analysis of the deposited data

How the results depend on the processing

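The count of called members was 0 in each of the 4 comparisons under all 72 combinations with an alternative, including the replicate block, with which 7 members had an unadjusted p under 0.05 for P3 high-DOX over P3 low-DOX tumors, as without it. Same-numbered arrays of different groups deviated from their group means with correlations between -0.48 and 0.27, so the numbers were not read as pairs. Of the single differences tried, 1 changed sign, that of Itgb2 for P3 high-DOX tumors over OPC lesions, which lay between -1.23 and 0.11 when single arrays were left out, with the positive value without OPC lesion replicate 2. Centring each array on its median moved the median of all genes by 0.11 for high over low DOX, where 26 of the 35 genes were then below 0, and it turned the integrin median for P3 GBM of both doses over OPC lesions to -0.04, against 0.08 as deposited. The median over the members for high over low DOX lay between -0.64 and -0.53 when single arrays were left out and between -0.61 and -0.29 under the other alternatives. With 3 arrays a group, the number of arrays limits the precision of each difference.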

Other observations

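The repeated value of Itga2b, the same on 7 of the 9 arrays, was of a kind shown by 9 of the 22180 genes (0.0406%). Itgb6 had the same value on 4 arrays. The second probe set of Itgav lay at or under 3.56 on all 9 arrays, with a mean of 3.36, against a mean of 10.75 for the probe set used.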
